A study of Homo sapiens with 6 samples.

Results

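The genes described here are 51 named genes of mitosis, the spindle and the kinetochore, of which 50 were among the 18372 genes tested. They were taken from a list of names, and each was read from the brightest probe set that carries only its symbol. By role they comprised 12 cyclins, mitotic kinases and their regulators, 7 genes of the spindle checkpoint and anaphase entry, and 9 genes of the kinetochore and centromere. The others were 9 kinesins, 5 genes of spindle assembly, 4 genes of the midzone and cytokinesis, and 5 genes of chromosome condensation. CENPA, the histone H3 variant that marks centromeres, was left out of the test because its probe set is shared with SLC35F6.

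To ask which mRNAs change when FAH is lowered, A375 cells were profiled on Affymetrix Human Gene 1.0 ST arrays. FAH is the fumarylacetoacetate hydrolase that ends tyrosine breakdown. A375 is an established human melanoma line, and 3 arrays were of cells given a negative control siRNA and 3 of cells given siFAH, all 72 h after transfection. No other agent, genotype or time was included, so all results come from 1 cell line and 1 time. The labels name only siFAH, so effects of the siRNA on other targets cannot be told apart from those of lower FAH. Each value is a log2 signal, and differences are siFAH minus control, so that -1 would mean that the signal fell by 50%.

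The signals of FAH itself were 5.48, 5.59 and 5.68 with control siRNA and 4.92, 4.60 and 4.92 with siFAH, with no overlap between groups. Its log2 fold change was -0.77 (SE 0.10, adjusted p = 0.00213 from limma). Arrays of the same group correlated from 0.9949 to 0.9972 over all genes and arrays of different groups from 0.9873 to 0.9949. Of the melanocyte markers, SOX10, S100B and MITF had signals from 8.30 to 8.59, from 7.16 to 7.47 and from 6.51 to 6.66. The pigment genes TYR, TYRP1, MLANA and PMEL lay between 2.71 and 3.99, under the 4.46 that marks the dimmest 30% of genes. None of the 9 melanocyte markers tested was called. In 1 of them, SOX10 (-0.19), every siFAH array was below every control array, and in 1 every siFAH array was above. Over all genes these shares were 18.6% and 13.4%. Of markers of other cell types, KRT10 of 5 keratinocyte markers was higher (0.45, a call kept in 2 of the 6 fits that left out 1 array), LYZ of 4 leukocyte markers was lower (-0.51, kept in 4), and no fibroblast or endothelial marker was called. Signals of the keratinocyte list ran from 2.89 to 5.59 with control siRNA and from 2.69 to 5.75 with siFAH, with KRT14 the brightest. Those of the leukocyte list ran from 2.19 to 6.15 and from 2.43 to 5.63, with LYZ the brightest. The part of these markers in the results below was not tested.

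Mitosis is driven by cyclin-dependent kinase 1 bound to cyclins A and B and is carried forward by the Polo and Aurora kinases. Condensins fold the chromosomes, kinetochores couple them to spindle microtubules, kinesins move along those microtubules, and the spindle checkpoint holds back the anaphase-promoting complex until every chromosome is attached. Many of these genes are repressed early in the cell cycle by the DREAM complex and transcribed in G2 and mitosis with the MYB-MuvB complex. Both complexes act through CHR elements, while CCAAT boxes are bound by NF-Y. The mRNA of such genes is therefore high in dividing cells.

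Promoter sequences were examined because many genes of this kind share this late cell cycle control. RefSeq (GRCh38.p14) listed promoters for 45 of the 51 members, and the 250 bases before each start were searched on both strands. The CHR motif TTTGAA was found in 24 of the 45 members (53.3%), against 13.3% of all 35116 promoters listed and 14.0% of the genes tested. The CCAAT motif was found in 35 of 45 (77.8%), against 11240 of the 35116 promoters and 40.4% of the genes tested. The other CHR form, TTCGAA, was found in 0 of 45 members, against 1.19% of all promoters and 1.80% of the genes tested. E2F motifs (TTTCCCGC, TTTGGCGC, TTTCGCGC or TTTGCCGC) were found in 4 of 45 members, against 2.79% of all promoters and 4.67% of the genes tested. A gene with several listed starts was counted if any of them held the motif.

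The 120 bases before the start are shown for PLK1, KIF11 and PRC1, which fell in the siFAH arrays, for CCNB2, which was not called, and for CKS1B and CKS2, whose signals moved the other way. They were picked after the values were seen, to set members with unlike outcomes and like motifs side by side, and each has 1 listed start. Capitals mark CCAAT or its reverse complement ATTGG, and TTTGAA or its reverse complement TTCAAA.
PLK1: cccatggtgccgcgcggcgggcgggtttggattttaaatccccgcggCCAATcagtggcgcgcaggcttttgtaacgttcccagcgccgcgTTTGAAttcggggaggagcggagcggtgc
KIF11: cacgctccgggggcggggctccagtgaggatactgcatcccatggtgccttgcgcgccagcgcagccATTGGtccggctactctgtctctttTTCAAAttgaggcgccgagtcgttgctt
PRC1: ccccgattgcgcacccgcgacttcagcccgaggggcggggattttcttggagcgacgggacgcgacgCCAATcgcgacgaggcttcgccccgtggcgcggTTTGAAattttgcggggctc
CCNB2: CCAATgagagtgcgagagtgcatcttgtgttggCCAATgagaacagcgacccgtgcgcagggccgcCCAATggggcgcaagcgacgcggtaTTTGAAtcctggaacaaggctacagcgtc
CKS1B: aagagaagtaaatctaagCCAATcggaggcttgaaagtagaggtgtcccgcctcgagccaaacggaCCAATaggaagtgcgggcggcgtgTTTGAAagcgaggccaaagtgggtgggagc
CKS2: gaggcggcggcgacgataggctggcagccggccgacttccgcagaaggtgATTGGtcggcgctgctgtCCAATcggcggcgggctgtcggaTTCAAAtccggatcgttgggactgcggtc
These windows lie at chr16:23678769-23678888 for PLK1, chr10:92593010-92593129 for KIF11, chr15:90994536-90994655 on the minus strand for PRC1, chr15:59105026-59105145 for CCNB2, chr1:154974561-154974680 for CKS1B and chr9:89311075-89311194 for CKS2, on the plus strand where no strand is named. In each of the 6 the CHR motif began between 20 and 30 bases before the start, and the nearest CCAAT motif between 52 and 73 bases before it. CCNB2 had 3 CCAAT motifs in its window, CKS1B and CKS2 had 2 each, and PLK1, KIF11 and PRC1 had 1 each. A match describes the letters only and was not tested as a binding site.

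Of the 50 members tested, 22 were lower in the siFAH arrays and 1, CKS2, was higher, at an adjusted p under 0.05 from limma, and 27 were not called. Over all genes tested, 6.38% were lower and 3.48% were higher. The median log2 fold change of the members was -0.24 (range -0.52 to 0.41), against 0.01 over all genes. Of the 50 values, 44 were negative, against 48.6% over all genes. In 34 members every siFAH array was below every control array, and in 3 (CKS1B, CKS2 and PTTG1) every siFAH array was above. Over all genes, 18.6% were separated in the lower direction and 13.4% in the higher. Brighter genes had lower fold changes in these arrays (Spearman's rho -0.31 over all genes, but 0.08 over the 50 members, descriptions with no test). Among the 3834 genes between the quartiles of the members' signal, 6.49 to 7.98, the median was -0.09 and 12.3% were lower. In that range 68.7% of the values were negative, and in 1396 of the 3834 genes every siFAH array was below every control array. At limits of an unadjusted p under 0.05 and at least 1.2-fold, 23 members were lower, against 7.83% of all genes, of which 20 were also lower by the adjusted p. BUB1B and NDC80 were lost there because their changes were under 1.2-fold. At these limits 2 (CKS1B and CKS2) were higher, against 4.74% of all genes. In bulk RNA, fewer cells in mitosis and less mRNA in each such cell cannot be told apart.

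**Figure D1:**
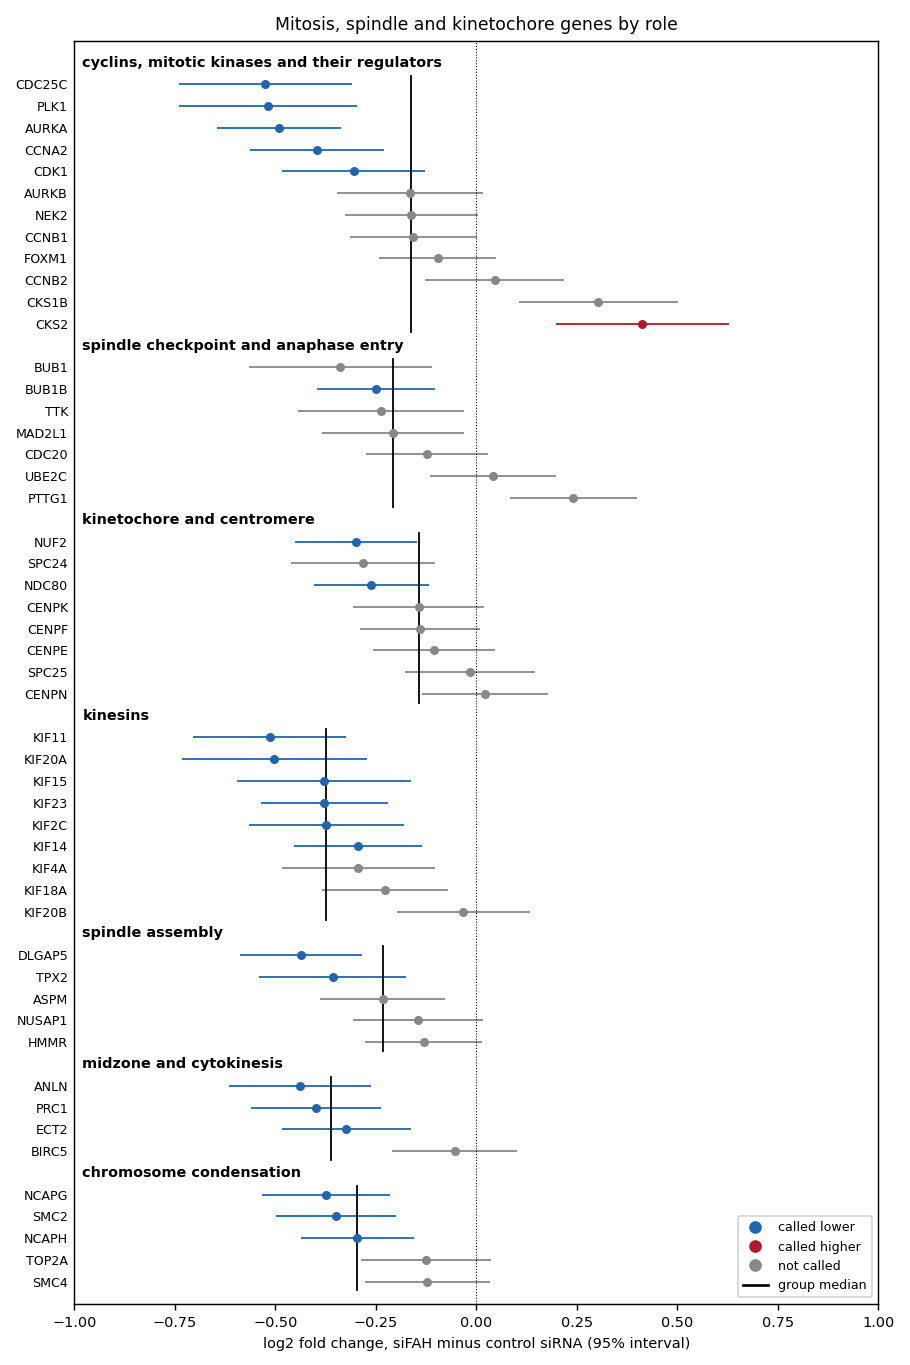
Log2 fold change (siFAH minus control siRNA, 3 arrays each) of the 50 members tested, in 7 role groups, with 95% intervals from limma. Blue marks members called lower, red those called higher and grey those not called, and the vertical bar in each group is its median. The kinesin and the midzone medians lie at -0.37 and -0.36, and CKS1B, CKS2 and PTTG1 stand to the right of 0.

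The shift was seen in each siFAH array. The median of the members, taken against the mean of the control arrays, was -0.25, -0.26 and -0.20 in siFAH replicates 1, 2 and 3. In the control arrays it was -0.01, -0.05 and 0.06, and over all genes it lay between -0.01 and 0.01 in every array. Control replicate 3 had the highest control signal in 32 of the 50 members and control replicate 2 the lowest in 30. Among the siFAH arrays, replicate 3 was the highest in 30 members and replicate 2 the lowest in 25.

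**Figure D2:**
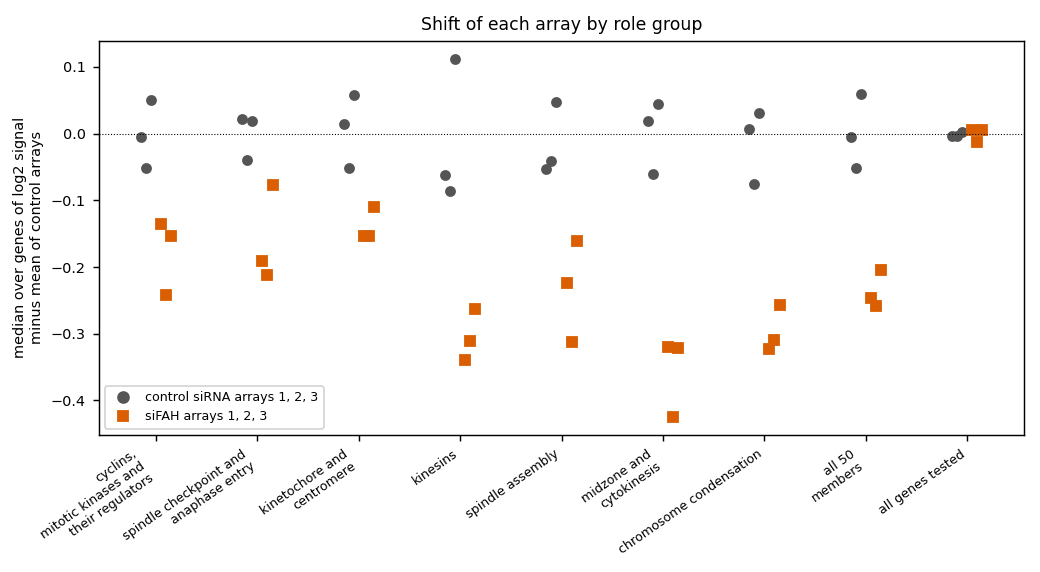
Median over the genes of each role group of log2 signal minus the mean of the control arrays (vertical axis), for each of the 6 arrays (grey circles, control siRNA, and orange squares, siFAH, in replicate order). In every role group all 3 siFAH arrays lie below all 3 control arrays, while over all genes tested the 6 arrays lie between -0.01 and 0.01.

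Of the 12 cyclins, mitotic kinases and their regulators, 5 fell, CKS2 rose and 6 were not called, with a median of -0.16. The shares to set beside this and each group below are the 6.38% lower and 3.48% higher over all genes. The lower ones were CDC25C, PLK1, AURKA, CCNA2 and CDK1. CDC25C is the phosphatase that removes the inhibitory phosphates of CDK1. Its signals were 5.61, 5.63 and 5.92 with control siRNA and 5.31, 5.07 and 5.21 with siFAH. The groups did not overlap, control replicate 3 was the highest of its group, and the log2 fold change was -0.52 (SE 0.10, adjusted p = 0.0106 from limma). PLK1, the Polo kinase that promotes mitotic entry and kinetochore attachment, had 9.23, 9.28 and 9.56 against 8.99, 8.80 and 8.73. Again control replicate 3 was highest and the groups did not overlap, with a log2 fold change of -0.52 (SE 0.10, adjusted p = 0.0119 from limma). Without siFAH replicate 3 its adjusted p was 0.0511.

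AURKA, the Aurora kinase of the centrosomes, had signals of 7.34, 7.24 and 7.27 with control siRNA and 6.82, 6.71 and 6.84 with siFAH. The arrays of each group lay close together, the groups did not overlap, and its log2 fold change was -0.49 (SE 0.07, adjusted p = 0.00325 from limma), the smallest adjusted p among the members. CCNA2, the A-type cyclin of S phase and G2, fell by 0.40 on the log2 scale (adjusted p = 0.0117 from limma, up to 0.0505 when siFAH replicate 2 or 3 was left out). CDK1 itself fell by 0.31 (adjusted p = 0.0395 from limma), and this call was lost without any 1 of the 6 arrays, with adjusted p from 0.0530 to 0.140, and after cyclic loess. AURKB, the Aurora kinase of the chromosomal passenger complex, had -0.16 (adjusted p = 0.232), and NEK2, a centrosome kinase, had -0.16 (adjusted p = 0.199, both from limma). AURKA minus AURKB within an array was -0.65, -0.95 and -0.88 with control siRNA and -1.23, -1.13 and -1.10 with siFAH, without overlap (change -0.33, exact permutation p = 0.1, two-sided, a pair picked after the values were seen).

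The B-type cyclins, which activate CDK1 at mitotic entry, were not called. CCNB1 had signals of 7.83, 7.76 and 7.89 with control siRNA and 7.71, 7.58 and 7.72 with siFAH. All 3 siFAH values were below the controls, by a log2 fold change of -0.16 (95% interval -0.31 to 0.0014, adjusted p = 0.194 from limma). CCNB2 had 8.03, 7.96 and 7.93 against 7.88, 8.06 and 8.12. These overlapped, siFAH replicate 1 being the lowest of all and replicate 3 the highest, and the log2 fold change was 0.05 (95% interval -0.13 to 0.22), which changed sign to -0.01 when each array was centred on its median and to -0.0027 without siFAH replicate 3. CCNB1 minus CCNB2 within an array changed by -0.20 (exact permutation p = 0.3, two-sided). FOXM1, the forkhead factor that activates G2 and mitotic genes, had -0.10 (95% interval -0.24 to 0.05, adjusted p = 0.388 from limma) and 0.01 after cyclic loess.

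The CKS proteins are small subunits that bind cyclin-dependent kinases and help them recognise phosphorylated substrates. CKS2 had signals of 10.24, 10.18 and 9.99 with control siRNA and 10.37, 10.58 and 10.70 with siFAH. Every siFAH array was above every control array, control replicate 3 was the lowest and siFAH replicate 3 the highest, and CKS2 rose by a log2 fold change of 0.41 (SE 0.10, adjusted p = 0.0268 from limma). This call was lost after quantile normalization and without control replicate 2 or 3 or siFAH replicate 2 or 3, with adjusted p up to 0.101. CKS1B, its paralog and a cofactor of the ubiquitin ligase that degrades CDKN1B, had 9.44, 9.37 and 9.19 against 9.50, 9.65 and 9.76. These did not overlap either, and the log2 fold change was 0.30 (SE 0.09, adjusted p = 0.0583 from limma, with a lowest value of 0.0400 among the fits that left out 1 array). All 3 probe sets named CKS1B had higher means in the siFAH arrays. The change was 0.30 for the kept and brightest, 0.30 for a second and 0.20 for the dimmest. The signal of near-identical copies of the gene cannot be told apart on them. Among the genes listed, probe set numbers ran with position along the chromosomes. By number the kept one falls beside CENPK on chromosome 5 and the second beside MASTL on chromosome 10. The dimmest falls beside S100A1 on chromosome 1, where CKS1B lies, and its 0.20 was under the 1.2-fold limit. The kept one may therefore read a copy elsewhere. All CKS1B values and calls given here, with the pair and the place by span, are of that probe set. CKS2 minus CKS1B within an array was 0.79, 0.82 and 0.79 with control siRNA and 0.87, 0.93 and 0.94 with siFAH, a change of 0.11 (exact permutation p = 0.1, two-sided).

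Of the 7 genes of the spindle checkpoint and anaphase entry, BUB1B fell, none rose and 6 were not called, with a median of -0.21. That is 14.3% lower, near the 12.3% of all genes between the quartiles of the members' signal. BUB1B, the BUBR1 protein of the mitotic checkpoint complex, had signals of 7.34, 7.24 and 7.32 with control siRNA and 7.05, 7.01 and 7.08 with siFAH. The groups did not overlap, and the log2 fold change was -0.25 (SE 0.07, adjusted p = 0.0400 from limma). The call was lost without any 1 array (adjusted p from 0.0763 to 0.128) and after quantile normalization or cyclic loess. The checkpoint kinases BUB1 and TTK had -0.34 (adjusted p = 0.0637) and -0.24 (adjusted p = 0.139), and MAD2L1, the checkpoint protein that binds CDC20, had -0.21 (adjusted p = 0.129, all from limma). CDC20, the activator of the anaphase-promoting complex, had -0.12 and UBE2C, its ubiquitin-conjugating enzyme, had 0.04, which became -0.01 with each array centred on its median.

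PTTG1, the securin that restrains separase until anaphase, had signals of 7.94, 7.88 and 7.81 with control siRNA and 8.07, 8.08 and 8.20 with siFAH. Every siFAH array was above every control array, and its log2 fold change of 0.24 (SE 0.07) had an adjusted p of 0.0590 from limma. It was called higher after quantile normalization, after cyclic loess, with dim genes left out, with trend and robust, with array weights and by SAM, as was CKS1B. PTTG1 was named after its values were seen.

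Of the 8 genes of the kinetochore and centromere that were tested, NUF2 and NDC80 fell, none rose and 6 were not called, with a median of -0.14. Both are subunits of the NDC80 complex, the main microtubule coupler of the outer kinetochore. NUF2 had signals of 7.26, 7.20 and 7.33 with control siRNA and 6.96, 6.91 and 7.02 with siFAH, without overlap. Its log2 fold change was -0.30 (SE 0.07, adjusted p = 0.0244 from limma), and the call was kept only without control replicate 1 and was lost after quantile normalization or cyclic loess. NDC80 had 6.01, 5.93 and 5.99 against 5.73, 5.74 and 5.68, also without overlap. Its log2 fold change was -0.26 (SE 0.06, adjusted p = 0.0320 from limma), and the call was lost without any 1 array, with adjusted p from 0.0627 to 0.111.

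The other subunits of that complex were not called. SPC24 had -0.28 (adjusted p = 0.0529 from limma), and its siFAH arrays, at 6.92, 6.84 and 6.64, lay below its control arrays, at 7.09, 7.10 and 7.06. SPC25 had 4.126, 4.027 and 3.997 against 3.949, 4.117 and 4.040, which overlapped (log2 fold change -0.01, 95% interval -0.18 to 0.15). Its signal was at the 22.8th percentile of all genes, among the dimmest 30%, and its sign changed with array weights and without control or siFAH replicate 1. CENPE, the kinetochore kinesin, had -0.11, the kinetochore protein CENPF -0.14, and the constitutive centromere proteins CENPK and CENPN -0.14 and 0.02, the last changing sign when each array was centred on its median. The probe set that CENPA shares with SLC35F6 had 7.23, 7.26 and 7.33 with control siRNA and 7.03, 7.03 and 7.19 with siFAH, and which of the genes it reads cannot be told.

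Of the 9 kinesins, 6 fell, none rose and 3 were not called. Their median of -0.37 was the lowest of the 7 groups, with -0.36 for the midzone and cytokinesis. Kinesins placed in other lists were not called, with -0.11 for CENPE, -0.17 for KIF22, -0.09 for KIFC1, -0.06 for KIF18B and -0.04 for KIF3A. They were set beside this group after values were seen. KIF11, the tetrameric motor that pushes the spindle poles apart, had signals of 7.82, 7.77 and 8.06 with control siRNA and 7.36, 7.31 and 7.44 with siFAH. The groups lay 0.33 apart at their nearest arrays, and the log2 fold change was -0.51 (SE 0.09, adjusted p = 0.00642 from limma). KIF20A, which carries the passenger complex and PLK1 to the midzone, had 7.54, 7.69 and 7.95 against 7.35, 7.13 and 7.19. Its control arrays were spread over 0.41 but did not overlap with the siFAH arrays, and the log2 fold change was -0.50 (SE 0.10, adjusted p = 0.0162 from limma, up to 0.0626 without siFAH replicate 2 or 3). KIF15, which shares the pole-separating work of KIF11, had 6.44, 6.21 and 6.46 against 5.81, 6.06 and 6.11. SiFAH replicate 1 was the lowest, the groups did not overlap, and the log2 fold change was -0.38 (SE 0.10, adjusted p = 0.0368 from limma). That call was kept only without control replicate 2, and was lost after quantile normalization, after cyclic loess and with array weights.

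KIF23, a motor of the centralspindlin complex of the midzone, fell by 0.38 (adjusted p = 0.0114 from limma, 0.0506 without siFAH replicate 2). KIF2C, which depolymerises microtubules at the centromere, fell by 0.37 (adjusted p = 0.0260, up to 0.0933 without control replicate 3 or siFAH replicate 2 or 3). KIF14, which localises CIT at the midbody, fell by 0.29 (adjusted p = 0.0309 from limma), a call lost in 5 of the 6 fits that left out 1 array and after quantile normalization or cyclic loess. The chromosome motors KIF4A and KIF18A had -0.29 (adjusted p = 0.0557) and -0.23 (adjusted p = 0.0679, both from limma). The siFAH arrays of both lay below their control arrays.

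KIF20B, the paralog of KIF20A that acts late in cytokinesis, had signals of 6.81, 6.86 and 7.00 with control siRNA and 6.79, 6.87 and 6.91 with siFAH. The groups overlapped, and the log2 fold change was -0.03 (95% interval -0.20 to 0.13, adjusted p = 0.822 from limma). It was 0.04 both after quantile normalization and after cyclic loess and 0.02 without control replicate 3. KIF20A minus KIF20B within an array was 0.73, 0.83 and 0.95 with control siRNA and 0.55, 0.27 and 0.28 with siFAH. The change of -0.47 was the largest of the 5 pairs compared, with no overlap (exact permutation p = 0.1, two-sided, the smallest that 3 against 3 arrays can give, or 0.125 adjusted over the 5 pairs).

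**Figure D3:**
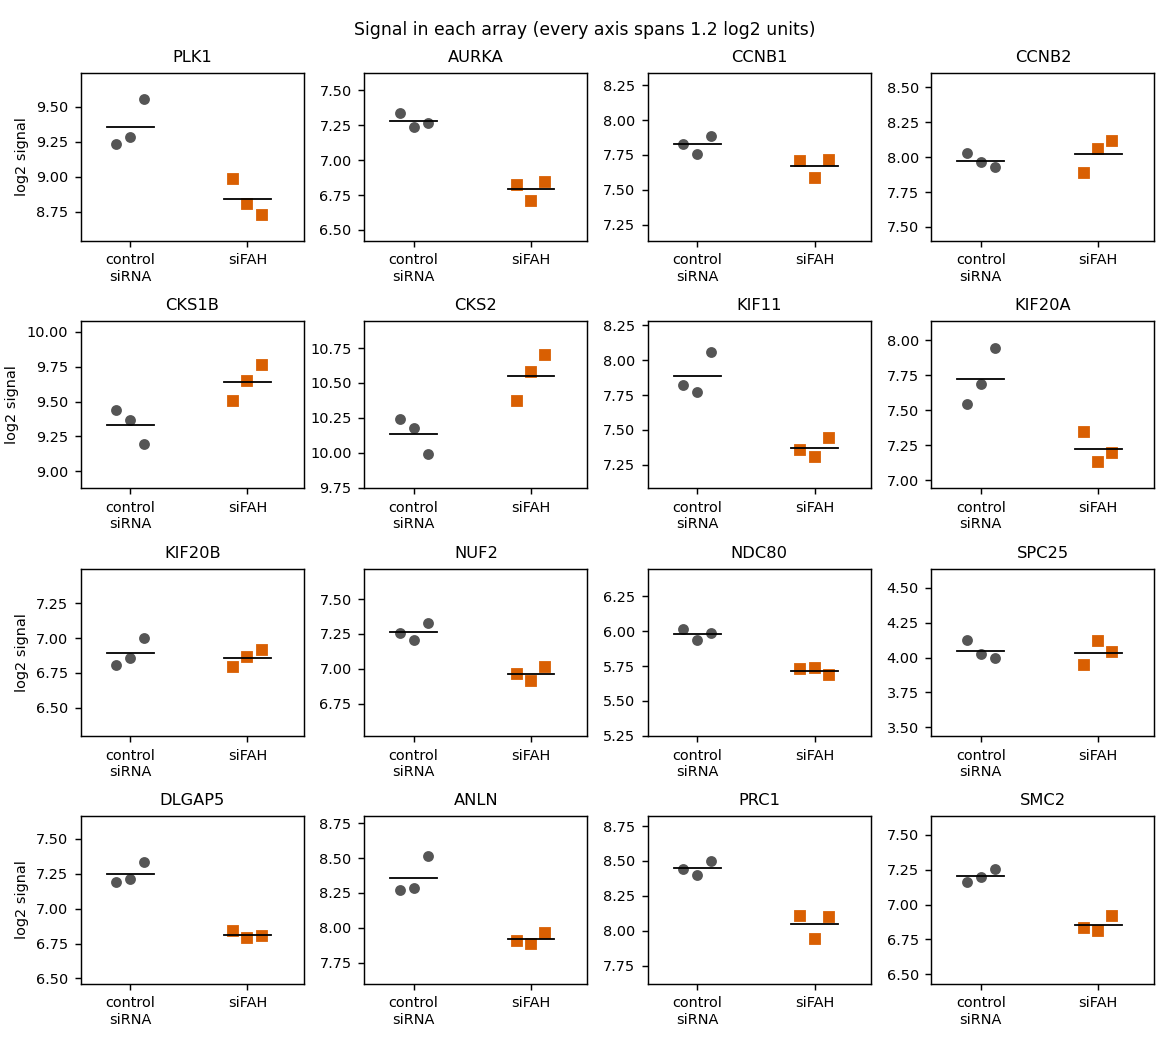
Log2 signal (vertical axis, 1.2 log2 units in every panel) of 16 members in each control siRNA array (grey circles) and each siFAH array (orange squares), in replicate order, with a bar at each group's mean. AURKA, DLGAP5, PRC1 and SMC2 show tight and separate groups, CKS1B and CKS2 rise, and CCNB2, KIF20B and SPC25 overlap.

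Of the 5 genes of spindle assembly, DLGAP5 and TPX2 fell, none rose and 3 were not called, with a median of -0.23. DLGAP5, also called HURP, stabilises kinetochore fibres. Its signals were 7.19, 7.21 and 7.34 with control siRNA and 6.84, 6.79 and 6.80 with siFAH. The siFAH arrays lay within 0.05 of each other and well under the controls, and the log2 fold change was -0.44 (SE 0.07, adjusted p = 0.00512 from limma). TPX2, the activator of AURKA on spindle microtubules, had 7.89, 7.97 and 8.18 against 7.67, 7.68 and 7.63. The groups did not overlap, control replicate 3 was the highest, and the log2 fold change was -0.36 (SE 0.08, adjusted p = 0.0248 from limma). It was not called without control replicate 2 or 3 or siFAH replicate 2 or 3 (adjusted p up to 0.0849), nor after cyclic loess. The spindle pole protein ASPM had -0.23 (adjusted p = 0.0629), the microtubule bundler NUSAP1 had -0.14 (adjusted p = 0.241) and the hyaluronan receptor HMMR, which also binds the spindle, had -0.13 (adjusted p = 0.235, all from limma).

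Of the 4 genes of the midzone and cytokinesis, ANLN, PRC1 and ECT2 were lower and BIRC5 was not called, with a median of -0.36. ANLN, the anillin scaffold of the contractile ring, had signals of 8.27, 8.28 and 8.51 with control siRNA and 7.91, 7.89 and 7.96 with siFAH. Its groups did not overlap, and the log2 fold change was -0.44 (SE 0.08, adjusted p = 0.0101 from limma). PRC1, which crosslinks antiparallel microtubules of the midzone, had 8.44, 8.40 and 8.50 against 8.11, 7.94 and 8.10. Its groups did not overlap either, and the log2 fold change was -0.40 (SE 0.07, adjusted p = 0.0100 from limma). ECT2, the exchange factor that activates RhoA at the division plane, had 7.14, 6.96 and 7.10 against 6.77, 6.69 and 6.78. All 3 siFAH arrays lay under the lowest control, and the log2 fold change was -0.32 (SE 0.07, adjusted p = 0.0222 from limma), a call lost without control replicate 1 or 3 or siFAH replicate 2 or 3 (adjusted p up to 0.0852) and after quantile normalization or cyclic loess.

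BIRC5, the survivin of the chromosomal passenger complex, had signals of 6.60, 6.52 and 6.55 with control siRNA and 6.52, 6.42 and 6.57 with siFAH, which overlapped (log2 fold change -0.05, adjusted p = 0.671 from limma). Its second and dimmer probe set had 0.19, so that the mean of both gave 0.07, and the kept one had 0.0027 after cyclic loess. None of the 4 subunits of the passenger complex was called: besides AURKB and BIRC5, INCENP had -0.11 and CDCA8 had -0.24 (adjusted p = 0.338 and 0.0690 from limma).

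Of the 5 genes of chromosome condensation, NCAPG, SMC2 and NCAPH fell, none rose and 2 were not called, with a median of -0.30. All 3 are subunits of condensin I. NCAPG had signals of 8.58, 8.53 and 8.70 with control siRNA and 8.23, 8.18 and 8.28 with siFAH, and SMC2, an ATPase that condensins I and II share, had 7.16, 7.20 and 7.25 against 6.83, 6.81 and 6.92. Neither overlapped, and their log2 fold changes were -0.37 and -0.35 (SE 0.07 for both, adjusted p = 0.0119 for both from limma). NCAPH, the kleisin that closes the ring, had 6.73, 6.72 and 6.73 against 6.40, 6.41 and 6.47. Its control arrays lay within 0.02 of each other, and the log2 fold change was -0.30 (SE 0.06, adjusted p = 0.0184 from limma). Without siFAH replicate 2 none of the 3 was called, with adjusted p of 0.0523 for NCAPG and 0.0538 for SMC2, and NCAPH was also lost without control replicate 2.

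SMC4, the partner ATPase of SMC2, had -0.12 (adjusted p = 0.301), and TOP2A, the topoisomerase that untangles sister chromatids, had -0.12 (adjusted p = 0.310, both from limma). With NCAPD2, which was not among the members and had -0.46 (adjusted p = 0.0103 from limma), 4 of the 5 condensin I subunits were lower. Of the 3 subunits particular to condensin II that were tested, NCAPD3 and NCAPG2 were lower (-0.39 each) and NCAPH2 had -0.15.

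Other genes of the same processes were counted in the same fit. Of 104 tested, 32 fell, ANAPC10 rose and 71 were not called, with a median of -0.17. That is 30.8% lower and 0.96% higher, against 6.38% and 3.48% over all genes. Among 32 other centromere and kinetochore genes, 11 were lower and none was higher, led by NSL1 of the MIS12 complex (-0.44) and SGO1, the shugoshin that protects centromeric cohesin (-0.43, called in 2 of the 6 fits that left out an array). Among 18 genes of the anaphase-promoting complex and separase, 4 were lower, with ESPL1, which is separase, at -0.45 (called in 4 of those fits) and the subunit ANAPC13 at -0.37 (called in 2). The subunit ANAPC10 was higher (0.38, adjusted p = 0.0440 from limma, called in 1 of the 6 fits that left out an array). Of 11 cohesin genes, ESCO2, the acetyltransferase that establishes cohesion, was lower (-0.45), and no other was called. This share of 9.09% is near the 6.38% over all genes. All 11 cohesin values were negative, against 48.6% over all genes, with a median of -0.20. In 9 of the 11 every siFAH array was below every control array, against 18.6% over all genes. Of 43 other mitotic kinases, phosphatases and spindle genes, 16 were lower, led by the centriole protein STIL (-0.51) and the midbody kinase CIT (-0.49).

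Of 24 regulators of mitotic transcription, 6 were lower and 1 was higher, with a median of -0.12. NFYC, a subunit of the factor that binds CCAAT boxes, had 7.52, 7.65 and 7.71 with control siRNA and 7.10, 7.03 and 7.14 with siFAH (log2 fold change -0.53, adjusted p = 0.00284 from limma). The other subunits of that factor were not called. NFYA had -0.17 and NFYB had 0.22 (adjusted p = 0.271 and 0.069 from limma), with every siFAH array of NFYB above every control array. RBBP4, a histone-binding subunit of the MuvB core, had -0.50, and MYBL2, the MYB protein that joins MuvB in late cell cycle, had -0.36 (adjusted p = 0.0128 and 0.0364 from limma). The other MuvB subunits LIN9, LIN37, LIN52 and LIN54 had -0.15, 0.11, -0.05 and 0.02 and were not called. MYBL2 was called in 2 of the 6 fits that left out an array. CDKN1A, the p21 inhibitor of cyclin-dependent kinases, was lower (-0.33, adjusted p = 0.0237), and CDKN1B, the p27 inhibitor, was higher (0.26, adjusted p = 0.0304, both from limma). CDKN1A was called in 2 of those 6 fits and CDKN1B in 0. E2F1 and RBL1 had -0.11 and -0.23 (adjusted p = 0.370 and 0.103 from limma). The remaining lower regulators were TFDP1 and E2F7, with -0.41 and -0.38 (adjusted p = 0.0271 and 0.0128 from limma). TFDP1 was called in 2 of the 6 fits that left out an array and E2F7 in 4. Among 51 genes of DNA replication, an earlier step of the cell cycle, 25 were lower and none was higher, with a median of -0.27.

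The counts of members lower and higher depended on which arrays entered the fit and on how they were put on 1 scale. Apart from a fit with the replicate number as a block, the other settings on all 6 arrays gave between 15 and 27 members lower, and the fits that left out 1 array gave between 7 (without siFAH replicate 2) and 18 (without control replicate 1). CDC25C, AURKA, KIF11, DLGAP5, PRC1 and ANLN were lower under every setting tried. The log2 fold change was negative under every setting in 40 members. The median over the members stayed between -0.30 and -0.19.

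**Figure D4:**
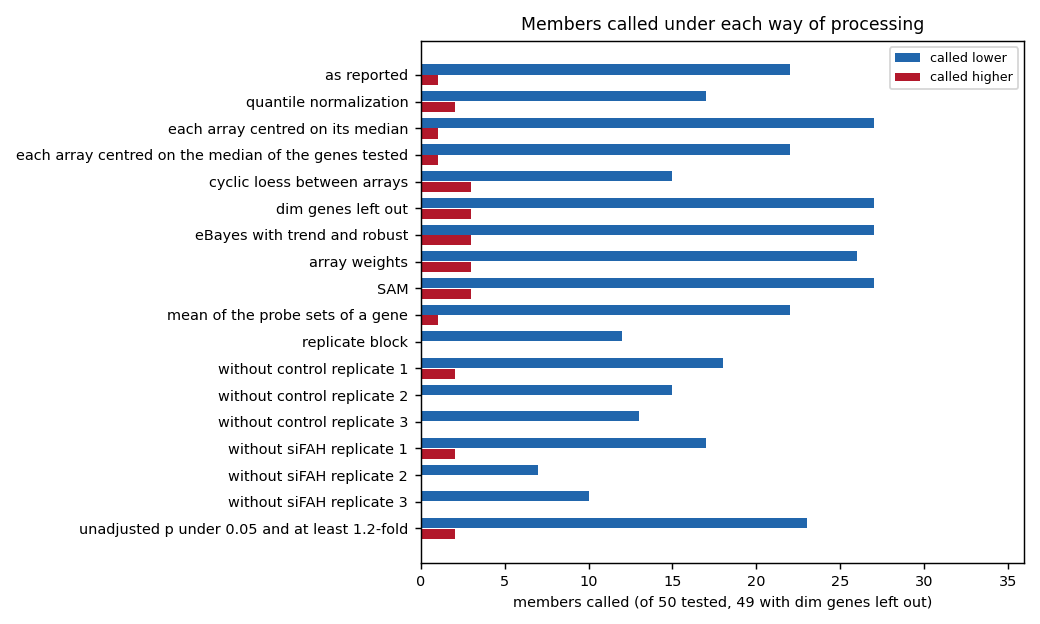
Number of members called lower (blue bars) and higher (red bars) under each way of processing (vertical axis), of 50 members tested, or 49 with dim genes left out. The count lower runs from 7 without siFAH replicate 2 to 27, and the count higher from 0 to 3.

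Promoter motifs were set beside the calls as a description. CCAAT was found before the start of 12 of the 20 members called lower that had a listed promoter (60.0%) and of 22 of the 24 tested members that were not called lower (91.7%). At least 2 copies of CCAAT were found in 5 of the 20 and in 17 of the 24, against 9.41% of all promoters and 13.6% of the genes tested. TTTGAA was found in 12 of the 20 (60.0%) and in 11 of the 24 (45.8%), and both motifs in 8 of the 20 and 10 of the 24. No test was made of these shares.

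Gene span, the distance from start to end of the gene in RefSeq, also ran with the fold change. Of the 8 members under 10 kb, 2 (CCNA2 and KIF20A) were lower and CKS2 was higher, with a median of -0.04. The medians were -0.16 for the 9 members of 10 to 20 kb, -0.27 for the 12 of 20 to 40 kb, -0.30 for the 17 of 40 to 80 kb and -0.26 for the 4 above 80 kb. Over all protein-coding genes the medians of the same bins were 0.05, 0.01, -0.02, -0.04 and -0.03. Spearman's rho of span and fold change was -0.28 over the 50 members. It was -0.22 over the 18347 genes with a span and -0.20 over the 16864 protein-coding genes. Pearson's r with log10 span was -0.42, -0.24 and -0.17 in the same order. These points are genes of the same 6 arrays and not independent, so no p is given, and the part of gene span in the results was not tested.

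**Figure D5:**
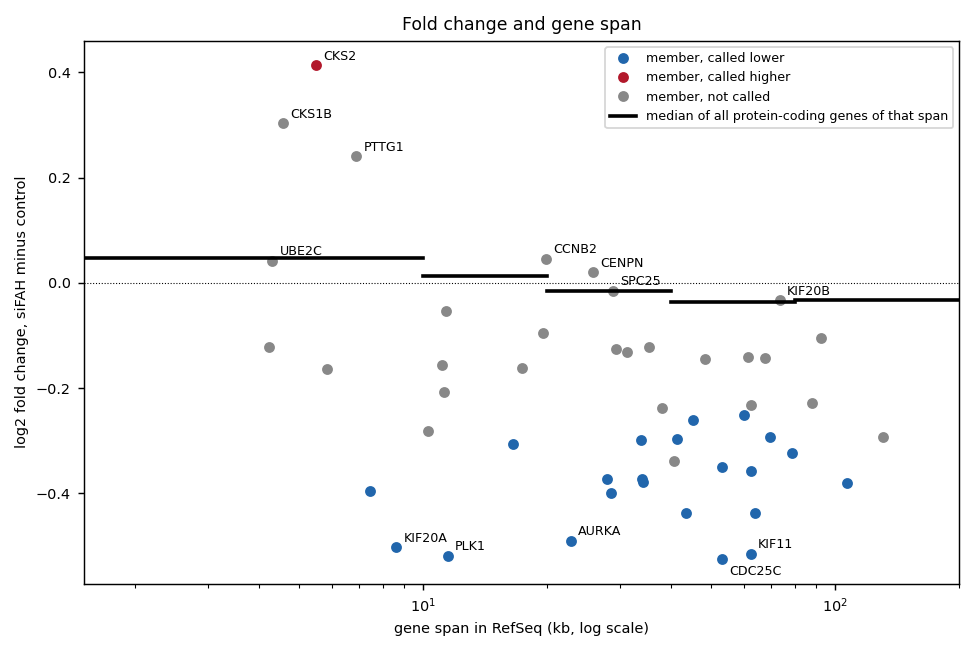
Log2 fold change (siFAH minus control siRNA) of the 50 members against gene span in kb (log scale), with members called lower in blue, higher in red and not called in grey. Black bars give the median of all protein-coding genes of that span, from 0.05 under 10 kb to -0.03 above 80 kb, and CKS1B, CKS2 and PTTG1 are among the 8 shortest members.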

How the data were processed

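The measurements were of A375 cells, 3 samples with control siRNA and 3 with siFAH, 1 array each. The authors deposited log2 signals made by RMA (background correction, scaling of the arrays to each other and a summary for every probe set), and no version is given in the sources used here. Of 28829 probe sets, 19291 carried 1 gene symbol, 1735 several and 7803 were not named here. The brightest probe set of each symbol was kept, giving 18372 genes. The groups were compared with limma 3.58.1 (lmFit, then eBayes) under R 4.3.3 (4 residual and 6.52 prior degrees of freedom), two-sided, with Benjamini-Hochberg adjustment over all genes, and called at an adjusted p under 0.05. SAM, which the methods name, was run as an alternative. The step was tested on simulated data. The sources differ on the kits used for RNA and labelling. P values from limma set the difference between groups against the spread between the deposited replicates, which limma shares in part over genes. Signals of different probe sets cannot be set against each other.

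The members, their role groups, the lists of other genes and the motifs were chosen with earlier results of these data known. Named with a value in every array were FAH, the 3 called members with the largest change in each role group, every member called higher and the paralog pairs of CKS1B and CKS2, CCNB1 and CCNB2, and KIF20A and KIF20B. In each list of other genes the 2 called genes with the largest change in each direction were named, with CDKN1A, MYBL2, E2F1 and RBL1. PTTG1, SPC24, SPC25, BIRC5, the shared CENPA probe set, NFYC and MKI67 were given array values after values were seen. The pairs AURKA with AURKB and NUF2 with SPC25 were compared after values were seen. MITF, TFDP1 and E2F7, and other subunits of complexes, were also named after values were seen. CDKN2C, PMF1 and DCT were not analysed here. Exact permutation tests over 3 against 3 arrays cannot give p below 0.1. Alternatives were quantile normalization, cyclic loess, centring on medians, leaving out the dimmest 30% of genes, trend and robust, array weights, SAM, the mean of probe sets, limits of 1.2-fold and an unadjusted p under 0.05, the replicate block, and leaving out each array. Figures used Python 3.11.15 and matplotlib 3.10.9.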

Additional observations from a re-analysis of the deposited data

How the results depend on the processing

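The median of the members stayed negative under every setting, and the sign of a called member never changed. The replicate numbers did not pair the arrays: deviations of same-numbered arrays correlated at -0.16, -0.09 and -0.27. With the replicate number as a block, 12 members were lower and 0 higher, and CDK1, BUB1B, NUF2, NDC80, KIF2C, KIF14, KIF15, TPX2, ECT2, NCAPH and CKS2 were not called (adjusted p up to 0.103 from limma). Leaving out 1 array gave 7 to 18 lower members and 0 to 2 higher, with 13 lower without control replicate 3, 7 without siFAH replicate 2 and 10 without siFAH replicate 3. Fewer arrays then entered the fit. Members higher numbered 2 after quantile normalization (CKS1B and PTTG1) and at the limits of 1.2-fold with unadjusted p (CKS1B and CKS2). They numbered 3 after cyclic loess, with dim genes left out, with trend and robust, with array weights and by SAM. Of the members called, 7 lost the call after cyclic loess and 6 after quantile normalization. Uncalled values changed sign for CCNB2 (-0.0083 with each array centred on its median, -0.0027 without siFAH replicate 3), KIF20B (0.037 after quantile normalization, 0.041 after cyclic loess, 0.024 without control replicate 3), FOXM1 (0.013 after cyclic loess) and SPC25 (0.0052 with array weights). Over the fits that left out 1 array CCNB2 ran up to 0.114, KIF20B from -0.073 to 0.024 and SPC25 from -0.056 to 0.028. BIRC5, CENPN and UBE2C also changed sign under at least 1 setting. The cause was not tested. Of all genes called, 64.7% were lower. This share was 80.1% after centring arrays on their medians, 53.7% after quantile normalization and 50.6% after cyclic loess. Centring on the median of the genes tested was added after seeing the data and left the count at 22 lower and 1 higher. The number of arrays limits the precision.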

Other observations

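MKI67, the Ki-67 protein that coats mitotic chromosomes and is used as a marker of dividing cells, was not among the members. Its signals were 8.62, 8.58 and 8.65 with control siRNA and 8.23, 8.31 and 8.36 with siFAH, which did not overlap (log2 fold change -0.32, SE 0.07, adjusted p = 0.0178 from limma). It was called in 2 of the 6 fits that left out 1 array. CHAF1B, of the chromatin assembly factor of replication forks, had -0.55 and GMNN, the geminin that blocks relicensing of origins, had -0.47 (adjusted p = 0.00544 and 0.00847 from limma). Both were lower in every fit that left out 1 array.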
